A study of Mus musculus with 2 samples.

Results

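Vascular endothelial cells of the mouse 4th mammary gland were picked out of 2 single-cell libraries by their endothelial transcripts. A barcode counted as vascular endothelial when it held UMIs (unique molecular identifiers, each standing for 1 captured transcript) of at least 3 of the 7 genes Cldn5, Cdh5, Pecam1, Kdr, Emcn, Gpihbp1 and Selp. It had to lack any UMI of the leukocyte gene Ptprc and of the epithelial gene Epcam, and to hold fewer than 40 Col1a1 and Col3a1 UMIs per 10000. The filter on quality asked for at least 1000 UMIs, at least 500 genes and at most 10% mitochondrial UMIs. These rules gave 545 of 21891 filtered barcodes, 286 of 10907 in the library of Gpm6a-deleted mice (KO) and 259 of 10984 in the library of wild-type mice (WT).

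Both libraries came from virgin female C57BL/6 mice of 6 to 8 weeks. The KO group carried a deletion of Gpm6a, which encodes a membrane glycoprotein best known from neurons, and the WT group carried none. DAPI-negative (living) cells were sorted from collagenase-digested and trypsin-treated glands of 3 littermates per genotype, and 1 library of 10x Genomics 3′ chemistry was made per genotype. The labels do not state which part of Gpm6a is missing, in which cells, or whether cells of the 3 animals were pooled before the library. With 1 library per genotype no difference between genotypes could be tested, and every interval given covers counting error only. Values are given as KO against WT throughout.

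The endothelium lines blood and lymph vessels. In capillaries it passes oxygen, fatty acids and solutes to the tissue; in arterioles it meets fast flow and is shaped by Notch signalling; in venules it admits leukocytes through selectins and adhesion molecules. High endothelial venules are a specialised venule type that draws lymphocytes out of the blood through sulfated sialomucins, and lymphatic vessels, set by the transcription factor Prox1, drain fluid and cells. The mammary gland sits in a fat pad, so much of its capillary bed supplies adipose tissue, where Gpihbp1 and Cd36 bring fatty acids across the vessel wall.

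Vascular endothelial barcodes made up 2.62% of filtered KO barcodes (2.33 to 2.94%, exact Clopper-Pearson) and 2.36% of WT barcodes (2.08 to 2.66%), and the intervals overlapped. With Epcam UMIs allowed the direction turned, with shares of 3.08% and 3.22%. Their total was 2409757 UMIs in KO and 2426346 in WT, with a median of 6400.5 and 7310 UMIs and of 2361.5 and 2517 genes per barcode. The median mitochondrial share was 2.40% against 2.83%. Over all filtered barcodes the medians were 9748 and 11237.5 UMIs. The libraries shared 33 barcode sequences, and 0 of them were members. Scrublet called 3 KO and 0 WT members doublets, and these were kept, as the rule does not mention doublets.

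Few barcodes lay near the limits on endothelial genes and collagen, and many at the limit on Epcam. With the other limits met, 13 KO and 17 WT barcodes held exactly 3 of the 7 genes, and 8 and 22 barcodes held exactly 2 and stayed outside. Most members held more, with 136 KO and 118 WT barcodes at 6 genes and 24 and 25 at all 7. Members with 20 to 40 collagen UMIs per 10000 numbered 20 and 17, while 4 and 5 barcodes at 40 to 60 met every other limit. The limit on Epcam removed most: of 373 KO and 435 WT barcodes with at least 3 of the genes, 63 and 126 held an Epcam UMI, 41 and 48 of them exactly 1.

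The members were chosen by the UMIs of these 7 genes and of Ptprc, Epcam, Col1a1 and Col3a1, so the levels of the 7 are a description. Levels are counts per 1000000 UMIs (CPM), summed over all members of a library. Cldn5, the tight junction claudin of endothelium, stood at 3671 CPM (3595 to 3748) in KO and 2250.3 CPM (2191 to 2311) in WT. Cdh5, the adherens junction cadherin of endothelium, stood at 1344 against 1270.2 CPM, and Pecam1, an adhesion molecule of endothelial junctions, at 851 against 987 CPM. Kdr, the main VEGF receptor, reached 655 against 771 CPM, and the sialomucin Emcn 476 against 462 CPM. Gpihbp1, which anchors lipoprotein lipase to capillary endothelium, reached 895 against 707 CPM. Selp (P-selectin) was carried by 22% and 24.3% of members but reached 1146 against 2017 CPM. Cdh5 was found in 96.9% and 97.3% of members, against 0.421% and 0.282% of T-cell-like barcodes. The T-cell-like barcodes had median depths of 5498.5 and 6460 UMIs. Their own rule allowed few of the same 7 genes, so this contrast follows in part from the selection and tests nothing. Pecam1 was also found in 21.3% and 23.7% of T-cell-like barcodes, so that gene alone did not mark endothelium. The label did not hold evenly. A cluster of 13 KO and 5 WT members carried the full lymphatic marker set. Clusters 1, 4, 6, 8 and 10, described further on, carried markers of pericytes, smooth muscle, fibroblasts or adipocytes beside the endothelial genes. All these members were kept, as the rule takes them.

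Leading genes outside the rule are a description too, as they were picked by their excess in these same barcodes. Among genes at 100 CPM or more in both libraries, the 15 with the largest excess over all other filtered barcodes were Adgrl4, Sox17, Cyyr1, Ptprb, Flt1, Sox18, Cd300lg, Myct1, Tie1, Cyp1a1, Rasip1, Cd93, Robo4, C1qtnf9 and Grrp1. In the library where the excess was smaller it ranged from log2 6.04 (Grrp1) to 6.78 (Adgrl4). Flt1, the VEGF receptor that acts largely as a decoy, stood at 1113 against 1282 CPM, against 10.4 and 14.7 CPM in other KO and WT barcodes. Ptprb, the phosphatase that restrains Tie receptor and cadherin signalling, stood at 591 against 684 CPM, and Cd93 at 738 against 858 CPM. The orphan receptor tyrosine kinase Tie1 stood at 159.8 against 214 CPM and the guidance receptor Robo4, which stabilises endothelial barriers, at 136 against 147 CPM. Of the transcription factors, Sox17 reached 384 against 292 CPM, Sox18 368 against 421 CPM, and the ETS factor Erg 108 against 154 CPM, where other barcodes held 1.05 and 1.42 CPM. Cyp1a1, a target of the aryl hydrocarbon receptor, was carried by fewer members than the other 14 genes, 28% and 24.3%.

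ETS family factors such as Erg bind a GGAA core in many endothelial promoters, so the 250 bases before the start site of the leading genes were searched for AGGAAG and its reverse complement CTTCCT. RefSeq promoters on GRCm38.p6 were at hand for 10 of the 15 leading genes. The letters were found in 8 of these 10, all but Myct1 and Cyp1a1, and in 8734 of 27025 genes with a window (32.3%); over windows the share was 29.5% of 32851. A match describes the letters and shows no binding. The windows of Flt1 (chr5:147726012-147726261, minus strand), Tie1 (chr4:118489850-118490099, minus strand) and Robo4 (chr9:37401722-37401971, plus strand) are shown as those of a VEGF receptor, a Tie receptor and a guidance receptor that led the members. That of Ackr1 (chr1:173333504-173333753, minus strand) is shown as the leading gene of the venous-like cluster and one of the largest differences between the libraries described further on. The sequences run 5′ to 3′ on the gene's strand, and capitals mark the matches, 2 in Flt1, 1 in Tie1, 1 in Robo4 and 3 in Ackr1.

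Flt1: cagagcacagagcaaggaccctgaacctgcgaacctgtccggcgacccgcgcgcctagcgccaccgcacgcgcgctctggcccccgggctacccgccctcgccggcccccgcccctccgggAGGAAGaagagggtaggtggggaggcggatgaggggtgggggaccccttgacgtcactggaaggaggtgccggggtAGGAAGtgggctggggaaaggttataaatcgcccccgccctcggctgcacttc
Tie1: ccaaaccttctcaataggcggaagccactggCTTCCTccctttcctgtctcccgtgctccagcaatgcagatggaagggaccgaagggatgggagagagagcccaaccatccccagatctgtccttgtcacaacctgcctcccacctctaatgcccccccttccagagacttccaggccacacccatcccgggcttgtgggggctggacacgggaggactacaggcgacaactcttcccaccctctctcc
Robo4: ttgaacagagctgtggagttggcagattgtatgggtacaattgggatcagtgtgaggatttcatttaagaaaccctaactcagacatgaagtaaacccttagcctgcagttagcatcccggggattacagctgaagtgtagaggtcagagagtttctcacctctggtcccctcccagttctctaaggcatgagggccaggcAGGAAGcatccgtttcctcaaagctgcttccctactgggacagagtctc
Ackr1: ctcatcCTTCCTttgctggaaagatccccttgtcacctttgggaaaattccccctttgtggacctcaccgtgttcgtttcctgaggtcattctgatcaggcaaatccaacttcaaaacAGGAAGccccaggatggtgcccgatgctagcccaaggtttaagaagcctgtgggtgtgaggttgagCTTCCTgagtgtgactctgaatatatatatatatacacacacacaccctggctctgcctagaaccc

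Clustering the 545 members of both libraries together gave 13 clusters, of which 7 took the name of an endothelial type from marker genes (a marker counted when at least 2-fold above the other members and found in at least 10% of the cluster; a name needed at least 3 of them, one of them among the cluster's 10 leading genes, and more than any other type had). The clusters were built from the same transcripts, so their genes describe them and test nothing. Capillary-like clusters held 71 KO and 58 WT barcodes, 24.8% (19.9 to 30.3%) and 22.4% (17.5 to 28.0%) of members. Venous-like barcodes made up 9.44% and 13.1%, arterial-like 7.34% and 10.8%, tip-like 6.29% and 6.95%, lymphatic-like 4.55% and 1.93%, and high endothelial venule-like 3.15% and 0.386%. Clusters left without a name held 44.4% of members in each library. In this clustering the intervals of the libraries overlapped for every named type. The shares moved with the way of naming: when each barcode was named singly by its markers, capillary-like barcodes were 42.0% (36.2 to 47.9%) and 27.4% (22.1 to 33.3%), whose intervals did not overlap, venous-like 15.7% and 22.8%, and arterial-like 12.6% and 17.8%.

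**Figure D1:**
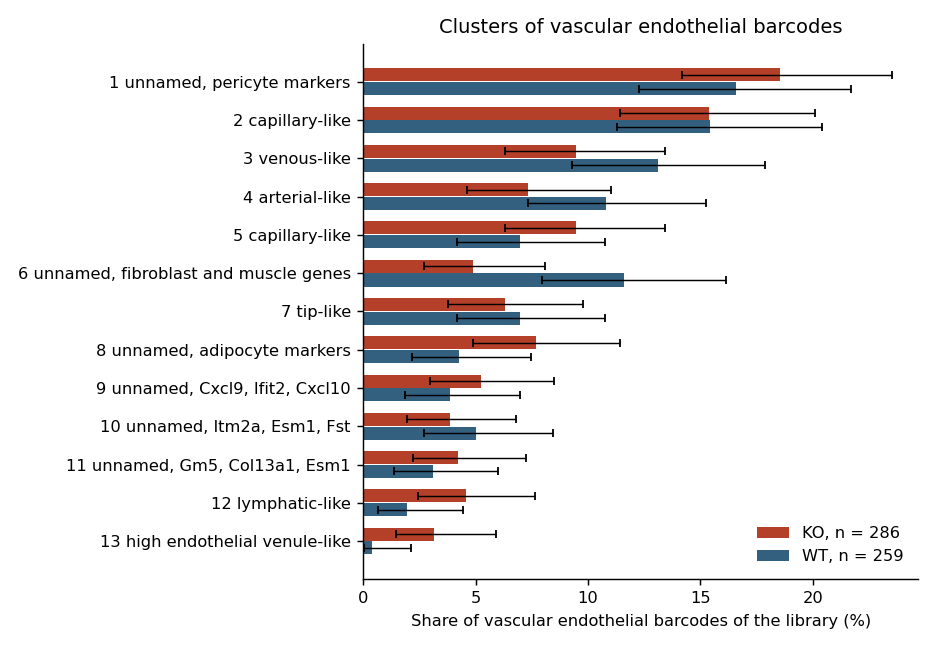
Share of the vascular endothelial barcodes of each library (x axis, %) in each of the 13 clusters (y axis), KO in red (286 barcodes) and WT in blue (259); bars are shares and lines exact 95% Clopper-Pearson intervals, which cover counting error only. Cluster 1, with pericyte markers, is the largest in both libraries, and cluster 13 holds 9 KO barcodes and 1 WT barcode.

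Cluster 2 (44 KO and 40 WT barcodes) was capillary-like, with 9 of 13 capillary markers. It held Fabp4, a fatty acid carrier, at 52567 against 37487 CPM, the fatty acid receptor Cd36 at 5440.1 against 5034 CPM and Gpihbp1 at 1882 against 1638 CPM. Its leading genes were Aqp7, which passes glycerol, at 657 against 336 CPM, the membrane carbonic anhydrase Car4 at 305 against 331 CPM, and Btnl9 at 526 against 461 CPM. Cluster 5 (27 and 18 barcodes), also capillary-like, was led by Cyp1a1 at 1284 against 808 CPM and by Irx3 at 179.7 against 430.0 CPM. It had the highest Cldn5, at 10046 against 8480.3 CPM, and Rgcc at 4527 against 3578 CPM. Barcodes of these 2 clusters were shallow, with medians of 3240 and 3512 UMIs.

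Cluster 4 (21 and 28 barcodes) was arterial-like, with 9 of 13 arterial markers, Gja4, Gja5, Sema3g, Efnb2, Bmx, Fbln5, Stmn2, Mgp and Alpl. Sema3g, a secreted semaphorin of arterial endothelium, stood at 375 against 343 CPM and Alpl at 193 against 178 CPM. The cluster also carried 5 of 9 smooth muscle markers, among them Myh11 at 586 against 929 CPM and Acta2 at 1063 against 1307 CPM, and Rgs5, a gene of mural cells, at 1762 against 2380.1 CPM. Summed over its barcodes, the cluster held transcripts of endothelium and of the vessel wall. How many barcodes held both, and whether 1 or several cells gave them, was not tested.

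Cluster 3 (27 and 34 barcodes) was venous-like, with 8 of 13 venous markers. It was led by Ackr1, the atypical chemokine receptor of venules, at 1236 against 2197 CPM, where all other members held 21.1 and 90.2 CPM. The leukocyte-capturing selectins followed, Selp at 8460.5 against 10847 CPM and Sele at 1765 against 1604 CPM. Vwf, the adhesive protein of endothelial granules, stood at 680.3 against 628 CPM, and the adhesion molecule Vcam1 at 534 against 749 CPM. The neutrophil growth factor Csf3 was among the leading genes, at 2424 against 1532 CPM. Markers of pericytes were low there, with Rgs5 at 30.1 against 60.5 CPM.

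Cluster 13 held 9 KO barcodes and 1 WT barcode and carried 10 of 11 markers of high endothelial venules. The KO barcodes were dominated by Glycam1, a sulfated ligand of the lymphocyte selectin, at 101030 CPM. They also held the lymphocyte-attracting chemokine Ccl21a at 13720 CPM, the fucosyltransferase Fut7 at 349.8 CPM, Ubd at 2023 CPM and the lysophospholipase D Enpp2 at 2084 CPM. The 1 WT barcode had Enpp2 at 3772 CPM but 0 UMIs of Glycam1, Ccl21a and Fut7. Over all members Glycam1 came to 13293 UMIs in KO and 1 UMI in WT, the latter in cluster 10. A UMI of Glycam1 was found in 12 KO members, 4.20%, against 0.983% of KO T-cell-like barcodes. Fut7 came to 46 against 0 UMIs. How many barcodes took this name depended on the grouping. At a finer resolution of 2 the shares stayed at 3.15% and 0.386%. At a coarser resolution of 0.5 they were 6.64% and 5.41%, and with each barcode named singly by its markers 7.34% and 5.02%. In any grouping, all WT members together held 1 UMI of Glycam1 and 0 UMIs of Chst4 and Fut7.

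T-cell-like barcodes made up 6.53% of filtered KO and 3.22% of WT barcodes, and B-cell-like barcodes 2.60% and 0.883%. Both shares were larger in KO, as was that of the high endothelial venule-like barcodes, and their part in that difference was not tested.

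Cluster 12 (13 and 5 barcodes) was lymphatic-like with 13 of 13 markers, which places these barcodes outside blood vessels although they met the rule. Prox1 stood at 691 against 1024 CPM, the hyaluronan receptor Lyve1 at 1740 against 905 CPM, Mmrn1 at 1801 against 2442 CPM and the peptide gene Nts at 3244 against 2869 CPM. Ccl21a stood at 9426 against 1878 CPM. Cldn5 stood at 1215 against 939 CPM, and the capillary gene Fabp4 stood at 1128 against 3654 CPM.

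**Figure D2:**
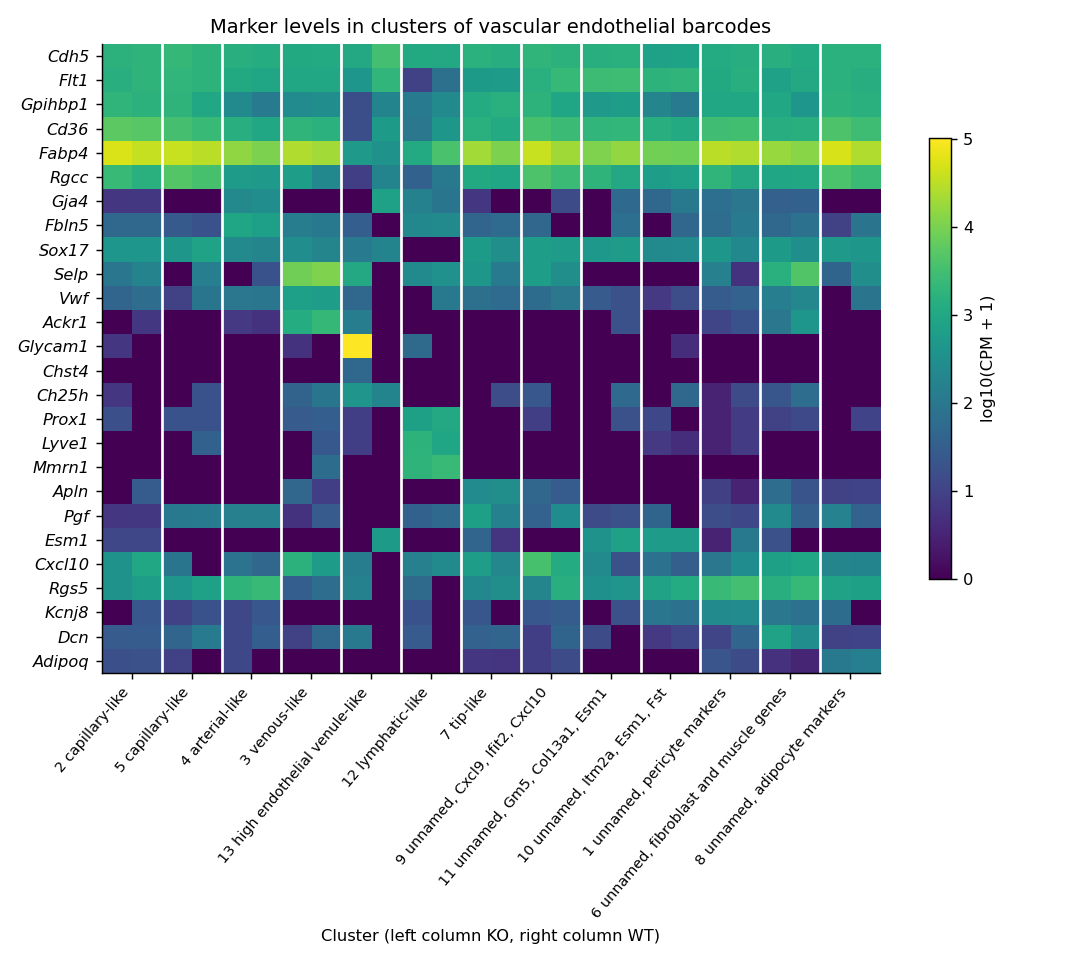
Levels of 26 marker genes (rows) in the 13 clusters (column pairs, KO left and WT right), as log10(CPM + 1) by color. Cdh5 is present in every column, Glycam1 is highest in the KO column of cluster 13, Prox1, Lyve1 and Mmrn1 are highest in cluster 12, and Selp and Ackr1 are highest in cluster 3.

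Gpm6a, the deleted gene, had UMIs in 2 of the 13 clusters. Over all members it came to 19 UMIs in 10 KO barcodes and 19 UMIs in 7 WT barcodes, 7.88 and 7.83 CPM. In the lymphatic-like cluster 7 of 13 KO barcodes held 14 UMIs, 122 CPM (66.9 to 205), and 5 of 5 WT barcodes held 16 UMIs, 273 CPM (156 to 444). The venous-like cluster held the remaining 5 KO and 3 WT UMIs, and the other 11 clusters held 0 in both libraries. Outside the members Gpm6a stood at 0.0805 and 1.73 CPM, and among T-cell-like barcodes 0 of 712 in KO (a count of 3 would be 0.421%) and 1 of 354 in WT held it. Epithelial barcodes held 0 UMIs in KO and 137 in WT, the latter in 16 of 3670 barcodes, and fibroblasts 3 and 35 UMIs. The labels give neither the deleted part nor the cells that lack it. The 3′ tags of these libraries may lie outside that part, so the KO counts in members check neither the deletion nor the label. KO below therefore means the library labelled as Gpm6a-deleted.

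**Figure D3:**
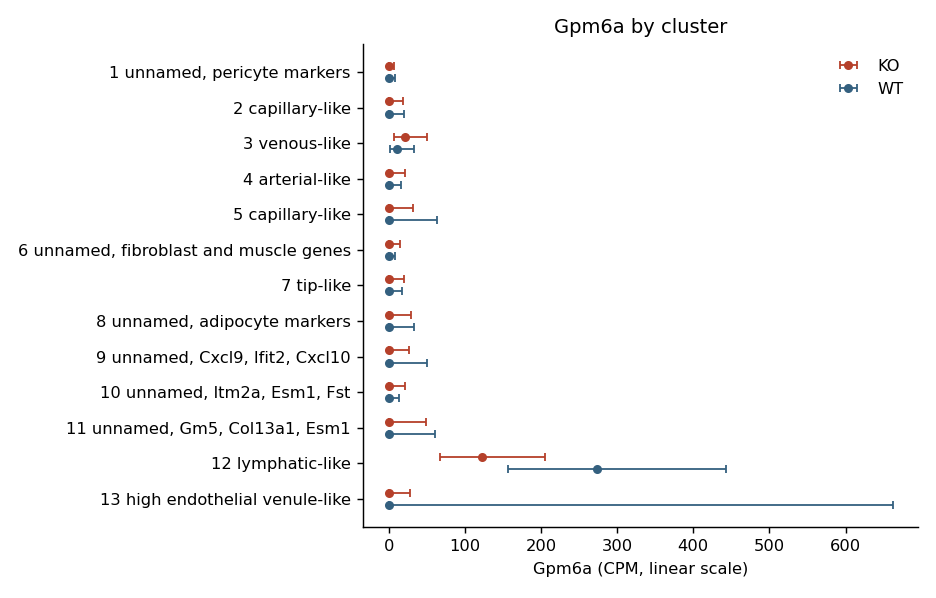
Gpm6a (x axis, CPM on a linear scale) in each cluster (y axis), KO in red and WT in blue; points are UMIs over all UMIs of the cluster and lines exact 95% Poisson intervals. Points above 0 are found in the lymphatic-like and the venous-like cluster, and the wide WT interval of cluster 13 comes from 1 barcode with 0 UMIs.

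Cluster 7 (18 and 18 barcodes) was tip-like, with 6 of 12 markers of sprouting endothelium. Apln, the ligand made by sprouting tip cells, stood at 260.4 against 297 CPM, and Prnd at 356 against 367 CPM. Pgf, a ligand of Flt1, stood at 707 against 158 CPM and the neuropeptide gene Gal at 585 against 65.1 CPM, both higher in KO. Gal was detected in 11.1% of the cluster's 36 barcodes, so its difference rests on few of them. Of its 10 leading genes by fold, Apln and Pgf were markers of the list, while Ube2c, Birc5, Nusap1 and Top2a are genes of dividing cells and Hist1h1b encodes a histone, so the name describes part of the cluster's leading genes. Ube2c and Top2a stood at 37.2 against 153 CPM and 79.7 against 167 CPM. After each barcode was thinned to 2000 UMIs, 2 of 267 KO members (0.749%) and 3 of 235 WT members (1.28%) held a UMI of at least 2 G2/M genes, and 2 of each lay in this cluster. The intervals, 0.0908 to 2.68% and 0.264 to 3.69%, overlapped, and 19 and 24 shallower barcodes were left out. Without thinning the shares were 3.50% and 5.79%.

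Clusters 10 (11 and 13 barcodes) and 11 (12 and 8 barcodes) took no name and shared the leading genes Itm2a, Esm1, Col13a1 and Gm5. Esm1, a proteoglycan secreted by activated endothelium, stood at 549.6 against 558 CPM in cluster 10 and at 358 against 715 CPM in cluster 11. Cluster 10 added Fst, an activin inhibitor, at 368 against 227 CPM and the retinoic acid hydroxylase Cyp26b1 at 323 against 122 CPM. It had the deepest barcodes, with a median of 17381.5 UMIs, and 3 of 9 pericyte markers. Cluster 11 added Ramp3, a receptor partner of adrenomedullin, at 159 against 216 CPM. Both were low in Selp and in Fabp4 compared with the capillary-like clusters, with Fabp4 at 8658 against 7855 CPM and 11036 against 15392 CPM.

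Cluster 9 (15 and 10 barcodes) also took no name and was led by interferon-induced genes. The T-cell-attracting chemokines Cxcl9 and Cxcl10 stood at 4475 against 3468 CPM and 3514 against 1205 CPM. Ifit2, Ifit1 and Gbp2, effectors of the interferon response, stood at 514 against 582 CPM, 866 against 1327 CPM and 1291 against 1598 CPM, and the checkpoint ligand Cd274 at 374 against 419.9 CPM. The summed level of the interferon-stimulated list was 14115 against 14940 CPM in this cluster and 7457 against 8178 CPM in the capillary-like clusters.

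Clusters 1, 6 and 8 took no endothelial name and carried markers of cells beside the endothelium. Cluster 1, the largest with 53 and 43 barcodes, held 9 of 9 pericyte markers, with Rgs5 at 2507 against 3256 CPM, Kcnj8 at 240.2 against 261 CPM and Abcc9 at 582 against 604 CPM. Cluster 8 (22 and 11 barcodes) held 7 of 7 adipocyte markers and 4 capillary markers, with Car3 at 2566 against 1886 CPM and Adipoq at 105 against 146 CPM. Cluster 6 (14 and 30 barcodes, median 14144.5 UMIs) held 5 of 8 fibroblast markers, with Dcn at 751 against 286 CPM. Its WT barcodes also held the skeletal muscle genes Acta1, Ckm and Mylpf at 484, 200.1 and 369.9 CPM, and its KO barcodes 0 UMIs of each. Adipoq was found in 9.09% and 5.79% of members against 0 of 712 KO (a count of 3 would be 0.421%) and 1 of 354 WT T-cell-like barcodes, and Rgs5 in 51% and 59.1% against 0.562% and 1.69%.

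Over all members the pericyte markers summed to 1783 against 2490.2 CPM, with lowest, median and highest barcode at 0, 2.59 and 299 in KO and 0, 8.17 and 223 in WT per 10000 UMIs. Smooth muscle markers summed to 565 against 1069 CPM (lowest, median and highest 0, 1.32 and 115 in KO and 0, 3.25 and 193 in WT per 10000), and Actg2 was at 0 in both. Adipocyte markers summed to 609 against 442 CPM (lowest, median and highest 0, 2.17 and 82 in KO and 0, 1.45 and 97.8 in WT per 10000). Fibroblast markers, limited by the rule, summed to 897 against 828 CPM. T cell markers were near 0, with Cd3d, Cd3e, Cd8a and Cd4 at 0 in both libraries. Krt5, a basal epithelial keratin, had 0 and 3 UMIs.

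Between the libraries, 10030 genes with at least 20 UMIs over both were measured in the members, and 558 of them (5.56%) were at least 1.5-fold higher in KO and 1018 (10.1%) at least 1.5-fold lower, 15.7% in all. Ratios are log2((KO CPM + 1)/(WT CPM + 1)), and higher or lower below means past 1.5-fold. The median over all measured genes was -0.06, and 44.3% of genes lay above 0. Under TMM scaling (edgeR) the median was 0.01 and the split became 741 higher and 801 lower. Of genes with 1000 UMIs or more, 2.56% were higher, and of those under 100 UMIs 9.07%, so the calls came largely from genes with few UMIs. In sums over cells, fewer cells of a type and less RNA per cell cannot be told apart.

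Among the pan-endothelial genes 1 of 17 was higher, Cldn5, and 1 lower, Selp. Cldn5 was higher in KO within the capillary-like clusters too, at 6590.4 against 4008 CPM, and in the venous-like cluster, at 891 against 586 CPM, but not in clusters 10 and 11, at 147 against 255 CPM and 901 against 1031 CPM. Selp was within 1.5-fold in the venous-like cluster, at 8460.5 against 10847 CPM, and lower in the fibroblast-marked cluster 6, at 1482 against 4372 CPM. Selp was also lower in the barcodes outside the members, at 9.12 and 19.4 CPM. Erg was at 108 against 154 CPM, log2 -0.50, Tie1 at 159.8 against 214 CPM, log2 -0.42 and Tek at 82.6 against 99.7 CPM, log2 -0.27. These 3 lay below 0 and within 1.5-fold, and TMM scaling left them on that side.

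The 12 genes with the largest excess in KO, among genes at 50 CPM or more that were carried by at least 10% of members (both in the higher library), were Enpp2, Eif4ebp1, Jdp2, Herpud1, Ly96, Mthfd2, Clu, Cd55, Pgf, Prr7, Thrsp and Bst2. Bst2, the interferon-induced tetherin that holds budding viruses at the membrane, stood at 756 CPM (721 to 791) in KO and 368 CPM (344 to 393) in WT, log2 1.04. It was carried by 88.1% and 78.4% of members and was higher in KO in capillary-like (1055 against 474 CPM) and venous-like (947 against 295 CPM) barcodes. All other filtered barcodes gave log2 0.94.

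Eif4ebp1, which restrains cap-dependent translation and is induced by Atf4, was at 129 against 44.9 CPM, log2 1.51. Herpud1, a component of endoplasmic-reticulum-associated degradation, was at 234 against 102 CPM, log2 1.19, and Jdp2, a repressor of the AP-1 family, at 173 against 72.5 CPM, log2 1.24. Mthfd2, the mitochondrial folate enzyme that follows Atf4, was at 66 against 29.3 CPM, log2 1.15. In all other barcodes the ratios were lower but of the same sign, log2 0.70, 0.44, 0.65 and 0.78 in that order. Within the capillary-like clusters Herpud1 and Jdp2 were still higher, at 192 against 107 CPM and 159.6 against 90.7 CPM. Eif4ebp1 was at 45.6 against 45.4 CPM there and Mthfd2 at 9.77 against 20.6 CPM, both on few UMIs.

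A large share of the UMIs of some of these genes lay in small clusters. Enpp2 stood at 188 against 65.1 CPM, log2 1.52, and 60.5% of its KO UMIs lay in the 9 high endothelial venule-like barcodes. In the capillary-like clusters alone the ratio of Enpp2 was log2 -0.27. Without the lymphatic-like and high endothelial venule-like clusters it was log2 0.47. With clusters 1, 4, 6, 8 and 10 left out as well, it was log2 2.50, larger than over all members. Clu, a secreted chaperone, stood at 395 against 181 CPM, log2 1.13, with 52.3% of its KO UMIs there, and without the lymphatic-like and high endothelial venule-like clusters its ratio was log2 -0.15. Ly96, the partner of the endotoxin receptor, stood at 53.1 against 23.1 CPM, log2 1.17, with 38.3% there. Cd55, a complement inhibitor, stood at 66.8 against 30.1 CPM, log2 1.13, with 48.4% of KO and 27.4% of WT UMIs in lymphatic-like barcodes. Pgf stood at 114 against 54 CPM, log2 1.06, with 48.5% and 26% in the tip-like cluster, and other barcodes gave log2 -0.06. Thrsp, a regulator of lipid synthesis, stood at 142 against 68.8 CPM, log2 1.04, with 31.5% and 24% in the adipocyte-marked cluster 8. Without the lymphatic-like, high endothelial venule-like and mixed clusters (1, 4, 6, 8 and 10) Thrsp was at log2 1.01. Prr7, a proline-rich membrane protein, stood at 71.8 against 34.2 CPM, log2 1.05. In the capillary-like clusters alone Pgf and Prr7 came within 1.5-fold, at log2 0.35 and 0.13, and without the lymphatic-like, high endothelial venule-like and mixed clusters Cd55 did, at log2 0.22.

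The 12 genes with the largest deficit in KO were AC160336.1, Snhg9, Plau, Edn1, Lars2, Dync1i2, Il6, Synpo2, Ackr1, Btg1, Tnfaip2 and Nadk. The first pair were non-coding or unnamed transcripts: AC160336.1 stood at 9.13 against 81.2 CPM, log2 -3.02 and the snoRNA host gene Snhg9 at 10.8 against 73.4 CPM, log2 -2.66. Other barcodes gave log2 -2.20 and -2.29. Lars2, the mitochondrial leucyl-tRNA synthetase, stood at 233 against 596 CPM, log2 -1.35 and at log2 -1.49 in other barcodes. Btg1, an anti-proliferative gene, stood at 657 against 1468 CPM, log2 -1.16, was lower in KO in each of the 13 clusters, and stood at log2 -0.71 in other barcodes. The dynein chain gene Dync1i2 stood at 104 against 262 CPM, log2 -1.33 (other barcodes -1.02) and the NAD kinase gene Nadk at 29.5 against 65.9 CPM, log2 -1.14 (other barcodes -0.62).

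Edn1, the vasoconstrictor endothelin-1, stood at 133 CPM (119 to 149) in KO and 406 CPM (381 to 432) in WT, log2 -1.60. Edn1 was detected in 24.1% of the KO barcodes and 39.4% of those of WT. Its level was 500.3 against 1108 CPM in the arterial-like cluster, 35.8 against 194 CPM in the capillary-like clusters and 166 against 1195 CPM in the lymphatic-like cluster. The venous-like cluster held 146 against 227 CPM. Edn1 was higher in KO in clusters 11 and 13, at 212 against 16.6 CPM and at 221 CPM against 0 UMIs in 1 WT barcode. In other barcodes it was lower in KO as well, at log2 -0.95.

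Ackr1 stood at 138 against 319.8 CPM, log2 -1.20 over the members, and 86.2% of its KO and 74.9% of its WT UMIs lay in the venous-like cluster, where it was at 1236 against 2197 CPM. Its promoter window is the last of those printed above. Ackr1 was also carried by 16.4% and 14.9% of fibroblasts, and over all other barcodes its ratio was log2 0.11. That the ratio was lower in the members than elsewhere was not tested. Il6 stood at 164 against 392 CPM, log2 -1.26, with WT levels of 726 CPM in the venous-like cluster and 1131 CPM in cluster 6. Plau, the urokinase activator of plasminogen, stood at 24.1 against 80 CPM, log2 -1.69, and its deficit in CPM was largest in the arterial-like cluster, at 17.1 against 243 CPM. Tnfaip2 stood at 204 against 450.5 CPM, log2 -1.14. Synpo2, an actin-binding protein of smooth muscle, stood at 32.4 against 77.9 CPM, log2 -1.24, and 43.4% of its WT UMIs came from 1 barcode. Its direction turned in the capillary-like clusters alone, at log2 2.09, but Synpo2 had very few UMIs there. Il6 came within 1.5-fold there, at log2 -0.33, and Plau without the lymphatic-like, high endothelial venule-like and mixed clusters, at log2 -0.43.

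**Figure D4:**
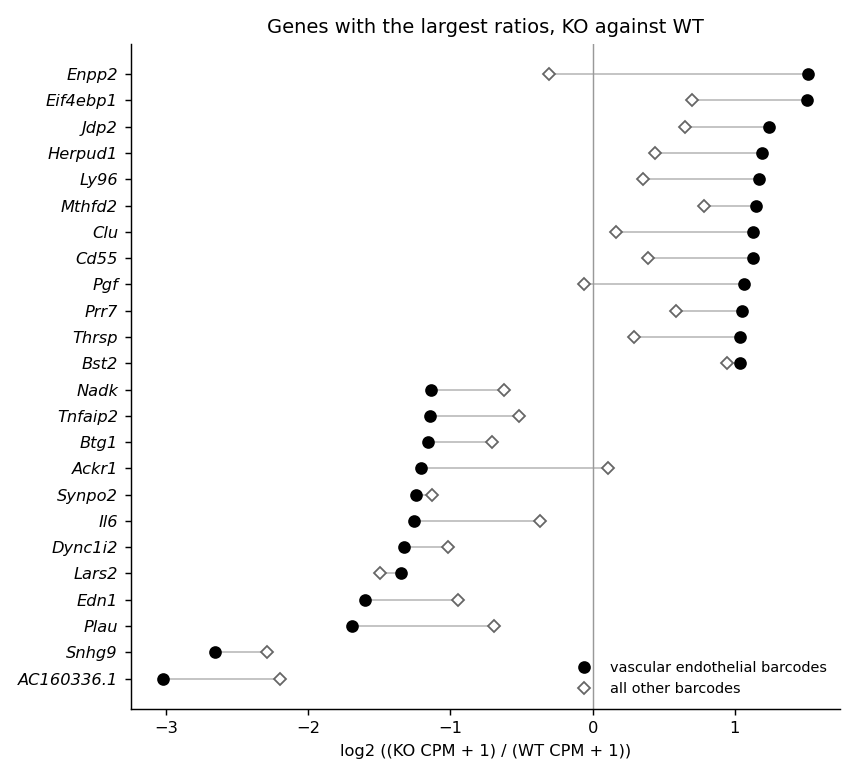
log2((KO CPM + 1)/(WT CPM + 1)) (x axis) of the 12 genes with the highest and the 12 with the lowest ratios (y axis) in vascular endothelial barcodes (filled circles) and in all other filtered barcodes (open diamonds), 1 library per genotype. The 2 values lie close together for Bst2, Lars2 and Synpo2, and on opposite sides of 0 for Enpp2, Pgf and Ackr1.

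Genes of vascular growth were described by role. Counts past 1.5-fold in this and the following lists stand beside 5.56% higher and 10.1% lower over all measured genes. For the VEGF ligands and receptors, 1 of 9 measured genes was higher and 0 lower (median log2 -0.20), the higher being the ligand Pgf. Vegfa, the main ligand of Kdr, stood at 36.1 against 36.7 CPM, log2 -0.02, Kdr at log2 -0.23, Flt1 at -0.20, and the coreceptors Nrp1 and Nrp2 at -0.16 and -0.25. In the Tie system 0 of 7 measured genes were higher and 0 lower (median log2 -0.25), with the Tie receptor antagonist Angpt2 at 118 against 141 CPM, log2 -0.25 and Ptprb at log2 -0.21. The receptors of both families lay within 1.5-fold.

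In the Notch pathway 0 of 12 measured genes were higher and 2 lower (median log2 -0.33). The lower genes were the targets Hes1 (676 against 1132 CPM, log2 -0.74) and Heyl (14.1 against 24.3 CPM, log2 -0.74). Hes1 had a smaller level in KO, by any amount, in each of the 13 clusters, with 1081 against 1897 CPM in the capillary-like clusters. The clusters come from the same 2 libraries and are not repeats, and cluster 13 held 1 WT barcode. Summed over the list, the level was 1752 against 2369 CPM in members. All other filtered barcodes held 739 against 1123 CPM, so a smaller sum in KO was not particular to the members. The receptors Notch1 and Notch4 stood at log2 -0.43 and -0.54, and the nuclear effector Rbpj at -0.51, within 1.5-fold. The ligands Dll4 and Jag2 stood at log2 0.16 and 0.12, and the feedback inhibitor Nrarp at 0.33. Of the BMP and TGF-beta genes, 0 of 14 measured were higher and 1 lower (median log2 -0.01). The ligand Bmp4 was lower (21.6 against 40 CPM, log2 -0.86), while the BMP target genes Id1 and Id3 stood at log2 0.35 and 0.46.

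Of the endothelial transcription factors, 1 of 19 measured was higher and 1 lower (median log2 -0.13). Tcf15, which with Meox2 drives fatty acid uptake genes in capillaries, was higher, at 227 against 131 CPM, log2 0.79. The ETS factor Elk3 was lower, at 76.4 against 126 CPM, log2 -0.72. Mef2c and Foxo1 stood at log2 -0.45 and -0.55, and the flow-induced factors Klf2 and Klf4 at -0.01 and 0.26. In the flow-responsive list 0 of 12 measured genes were higher and 2 lower (median log2 -0.24). The lower genes were Edn1 and the anticoagulant receptor Thbd (183 against 309.9 CPM, log2 -0.75). The nitric oxide synthase Nos3 stood at 71.8 against 85.3 CPM, log2 -0.25.

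In haemostasis 1 of 14 measured genes was higher and 4 lower (median log2 -0.36), against a median of -0.06 over all measured genes. Without the lymphatic-like, high endothelial venule-like and mixed clusters the median was log2 -0.22. With the mixed clusters kept and the other clusters left out it was log2 -0.425, and in the capillary-like clusters alone -0.426. The lower genes were Procr, the endothelial protein C receptor (277 against 593 CPM, log2 -1.10), the plasminogen activator Plat (58.9 against 114 CPM, log2 -0.94), Thbd and the ADP-clearing ectonucleotidase Entpd1 (77.2 against 119.5 CPM, log2 -0.62). F8, which encodes coagulation factor VIII, was higher, at 31.5 against 12 CPM, log2 1.33. Vwf stood at 108 against 143 CPM, log2 -0.39. Procr stood at 415 against 1316 CPM in the arterial-like cluster and at 918 against 2117 CPM in the lymphatic-like cluster. In the capillary-like clusters it was low, at 48.8 against 66 CPM. The smooth muscle markers, which the arterial-like cluster also carried, were lower in KO as given above, and their part was not tested.

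In the list of leukocyte adhesion 2 of 19 measured genes were higher and 4 lower (median log2 -0.09). Glycam1 and Ccl21a were higher, Ccl21a at 1218 against 54.4 CPM, both through the clusters already described. Ackr1, Madcam1, Selp and Podxl were lower, with Podxl, a sialomucin of the luminal surface, at 180.1 against 284 CPM, log2 -0.65. Icam1, Vcam1 and Sele, which arrest and slow leukocytes, stood at log2 -0.04, -0.09 and -0.15. Cxcl9 and Cxcl10 stood at log2 0.34 and 0.43. For the enzymes that build selectin ligands, 3 of 8 measured genes were higher and 0 lower (median log2 0.17). The higher genes Fut7, Gcnt1 and Fut4 had few UMIs, and without the lymphatic-like and high endothelial venule-like clusters the median was log2 -0.48.

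Capillary markers lay mostly above 0. Of the capillary markers, 3 of 13 measured were higher and 0 lower (median log2 0.25), and 11 lay above 0. The higher ones were Rgcc (1605 against 1031 CPM, log2 0.64), Tcf15 and Aqp7 (169 against 96 CPM, log2 0.81). Fabp4, the marker with the most UMIs, stood at 24931 against 18068 CPM, log2 0.46, Cd36 at 2302 against 2033 CPM, log2 0.18 and Gpihbp1 at log2 0.34. In the list for lipid uptake 2 of 18 measured genes were higher and 2 lower (median log2 0.25), with Slc27a3 and Dgat2 lower at log2 -0.80 and -0.66. Within the capillary-like clusters alone the list's median was log2 0.21, with Aqp7 at 554 against 280.4 CPM and Fabp4 at 46892 against 35869 CPM. Adipocyte markers lay on the same side (3 of 6 measured higher, 0 lower), with Adipoq at 13.3 against 11.5 CPM, log2 0.19 and Lpl at 178 against 161 CPM, log2 0.15, and their part was not tested.

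Arterial and venous markers had medians below 0, and the shares of those clusters were smaller in KO. Summed over all members, arterial markers came to 1833 against 2202 CPM and venous markers to 4281 against 5733 CPM. In all other filtered barcodes the sums were smaller in KO as well, at 517 against 713 CPM and 409 against 566 CPM. The part of the cluster shares in these values was not tested. Of the arterial markers, 0 of 13 measured were higher and 4 lower (median log2 -0.32), the lower being Gja5, Mgp, Bmx and Gja4. The marker lists were counted over all members, mixed clusters included. Mgp, an inhibitor of calcification, had the most UMIs of these, at 139 against 275 CPM, log2 -0.98. The smooth muscle markers Acta2, Myh11, Mustn1 and Tagln were lower too (4 of 5 measured), with Tagln at 201 against 389 CPM, log2 -0.95. Of the venous markers, 1 of 13 measured was higher and 3 lower (median log2 -0.31), with Ackr1 and Selp among the lower. Nr2f2, the factor that sets venous identity, stood at 116 against 150.0 CPM, log2 -0.37.

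Of the pathway lists with at least 10 measured genes, that of the integrated stress response and amino acid supply had the highest median: 7 of 15 measured genes were higher and 1 lower (median log2 0.53), against 5.56% higher over all measured genes. The higher genes were Chac1 (24.5 against 5.36 CPM, log2 2.00), Trib3 (12.4 against 4.53 CPM, log2 1.28), Mthfd2, Slc7a11 (41.9 against 21 CPM, log2 0.96), Psat1 (14.5 against 7.01 CPM, log2 0.96), Sesn2 (37.8 against 21 CPM, log2 0.82) and Phgdh (10.4 against 5.77 CPM, log2 0.75). They include a glutathione-degrading enzyme (Chac1), the cystine importer (Slc7a11) and 2 enzymes of serine synthesis (Phgdh and Psat1). Atf4, the factor that drives many of them, stood at 524 against 521 CPM, log2 0.01, and asparagine synthetase Asns at 67.2 against 46.2 CPM, log2 0.53. Slc38a2, an amino acid transporter, was lower, at 925 against 1452 CPM, log2 -0.65. The summed level of the list went the other way from its median, at 2377 CPM (2316 to 2440) in KO against 2767 CPM (2701 to 2834) in WT. In all other filtered barcodes the sum was 1392 against 1863 CPM. Ddit3 was listed at 0 in both libraries, as was the glycolytic gene Aldoa. Whether such a 0 reflects absent transcripts or the way reads were counted was not tested. Mthfd2 and Eif4ebp1 lost their excess in the capillary-like clusters, as given above, where both had few UMIs. Without the lymphatic-like, high endothelial venule-like and mixed clusters they kept it, at log2 1.00 and 0.96. In the capillary-like clusters alone the median was log2 0.13, and without the lymphatic-like, high endothelial venule-like and mixed clusters 0.60.

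Of the interferon-stimulated genes, 4 of 26 measured were higher and 1 lower (median log2 0.12). Besides Bst2, the ubiquitin-like Isg15 was higher (412 against 214 CPM, log2 0.94), as were the interferon regulatory factor Irf7 (145 against 87 CPM, log2 0.73) and Ifit3b (19.9 against 9.48 CPM, log2 1.00). The GTPase Igtp was lower (63.9 against 115 CPM, log2 -0.84), and Gbp2 stood at log2 -0.45. Isg15 had a larger level in KO, by any amount, in 12 of the 13 clusters, all but cluster 13 with its 1 WT barcode. In the capillary-like clusters alone the list's median was log2 -0.27, with Bst2 and Isg15 still higher there. For antigen presentation by MHC class I 2 of 15 measured genes were higher and 0 lower (median log2 0.07), with H2-T23 at 212 against 112 CPM, log2 0.91 and the immunoproteasome subunit Psmb9 at 80.9 against 49.5 CPM, log2 0.70. B2m stood at log2 -0.27 and H2-K1 at -0.11. MHC class II genes were scarce, with Cd74 at 35.7 against 8.24 CPM. The H2 genes, Ifit3b and Ccl21a have close copies among which reads may be split, so their values are uncertain.

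Barrier and matrix genes had medians between -0.30 and 0.06. Of the junction genes, 1 of 12 measured was higher and 1 lower (median log2 0.06), Cldn5 being the higher and Lsr, with few UMIs, the lower. F11r, a junctional adhesion molecule, stood at 232 against 162 CPM, log2 0.52. Of the caveola and fenestra genes, 0 of 9 measured were higher and 0 lower (median log2 -0.30), with Plvap, the protein of fenestral diaphragms, at 605 against 749.7 CPM, log2 -0.31 and Cav1 at 656 against 796 CPM, log2 -0.28. Of the basement membrane genes and integrins, 1 of 18 measured was higher and 0 lower (median log2 -0.17), with Col4a1 and Sparc at log2 -0.25 and -0.01. Of the guidance genes, 0 of 14 measured were higher and 1 lower (median log2 -0.16), with Sema6a at 115 against 184 CPM, log2 -0.67. Of the receptors for sphingosine 1-phosphate and related ligands, 1 of 15 measured was higher and 2 lower (median log2 -0.29). The thrombin receptor F2r was higher (146 against 96 CPM, log2 0.60) and S1pr1, which keeps the barrier tight, stood at 459 against 604 CPM, log2 -0.40.

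Lists of stimulus-induced and cycling genes were read against 15.7% past 1.5-fold over all measured genes. Of the immediate early genes, 1 of 20 measured was higher and 0 lower (median log2 0.07), Atf3 being the higher, at 1023 against 632 CPM, log2 0.69, while Fos, Egr1 and Jun stood at log2 -0.04, 0.04 and 0.12. Of the heat shock genes, 0 of 14 measured were higher and 0 lower (median log2 -0.04). Of the inflammatory genes, 1 of 20 measured was higher and 2 lower (median log2 -0.16), with Nfkbia at log2 -0.15 and the monocyte attractant Ccl2 at 927 against 670.1 CPM, log2 0.47. Of the glycolytic and hypoxia genes, 2 of 18 measured were higher and 0 lower (median log2 0.07), with the glucose transporter Slc2a1 at 41.5 against 61 CPM, log2 -0.54 and Ldha at log2 0.40. Of the S phase genes, 0 of 14 measured were higher and 1 lower (median log2 -0.12), and of the G2/M genes 1 of 9 was higher and 5 lower (median log2 -0.72), each of the latter under 25 CPM. Hormone receptors were scarce, with Esr1 at 2.49 against 6.18 CPM, while the glucocorticoid receptor Nr3c1 stood at 153 against 166 CPM, log2 -0.12.

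**Figure D5:**
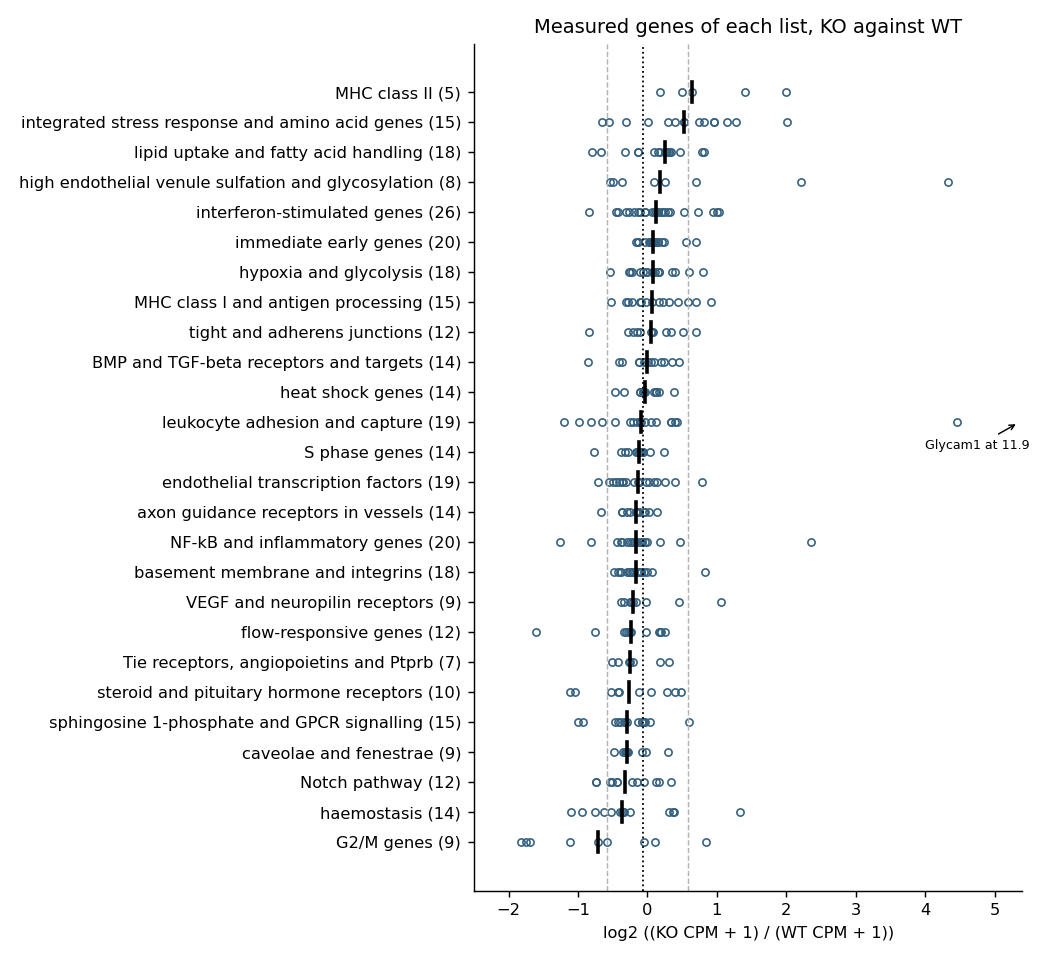
log2((KO CPM + 1)/(WT CPM + 1)) (x axis) of each measured gene (circle) of 26 lists (y axis, number measured in brackets), with the list's median (black bar), the median over all 10030 measured genes (dotted line, -0.06) and 1.5-fold in each direction (dashed lines). Glycam1 lies off the axis at 11.9, the stress response list has its median at 0.53, and the G2/M list at -0.72.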

How the data were processed

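Single cells of the 4th mammary gland were measured in 2 libraries, 1 per genotype. Per the submitters' processing notes and the file headers, the authors made the deposited counts (whole UMI counts of 32285 genes per barcode) with Cell Ranger 5.0.1; Seurat 3.2.0 and the mouse build mm10 are named there without a role. The annotation version and any use of introns are not given in the sources used here. Samples were grouped by their titles. The deposited files held 11442 KO and 12291 WT barcodes, 139757797 and 160026788 UMIs, and no cell annotation.

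Barcodes were filtered and members chosen by the stated rule in Python 3.11.15 (scanpy 1.11.5, numpy 2.4.6, scipy 1.17.1). The members and gene lists were chosen with earlier results of these data known. UMIs were summed per library, and levels compared as log2((KO CPM + 1)/(WT CPM + 1)) for genes with at least 20 UMIs over both. With 1 library per genotype no test was possible, so 1.5-fold served as the limit, and 95% intervals (exact Poisson for levels, Clopper-Pearson for shares) cover counting error only. Precision follows the UMIs behind a value. The summation and ratios were tested on simulated data.

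Members of both libraries were clustered together (2000 variable genes, 30 principal components, 15 neighbours, Leiden resolution 1, leidenalg 0.10.2). A cluster was named when at least 3 markers of a type were 2-fold or more above other members every other type had fewer, and a marker stood among its 10 leading genes. T-cell-like barcodes held Ptprc, at least 2 T cell genes and fewer than 2 endothelial genes; fibroblasts were barcodes at 40 or more collagen UMIs per 10000; epithelial barcodes held at least 2 Epcam UMIs. Scrublet was run per library and its calls used only as an alternative.

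Genes named between genotypes were the 12 highest and the 12 lowest ratios among genes at 50 CPM and in 10% of members of the higher library, with at least 100 UMIs over both and at least 0.5 times the level of other barcodes, leaving out ribosomal, mitochondrial, haemoglobin, Gm and Rik genes and Xist. Alternatives covered the rule's limits, doublets, scaling (TMM, edgeR 4.0.16), the added CPM, low counts, thinning and cluster resolution. Promoters came from RefSeq tables of GRCm38.p6. Results on a few genes of the lists are not reported here.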

Additional observations from a re-analysis of the deposited data

How the results depend on the processing

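Of 408 values of the 24 named genes under 17 alternatives, 338 stayed within the counting interval of the main value, 63 moved and 7 turned sign. The sign turned for Clu without the lymphatic-like and high endothelial venule-like clusters (-0.15), also without the mixed clusters (-0.11) and in capillary-like clusters only (-0.32). For Synpo2 it turned without all of these clusters (0.53) and in capillary-like clusters (2.09). In capillary-like clusters it also turned for Enpp2 (-0.27) and Mthfd2 (-1.01). The capillary-like values of Synpo2 and Mthfd2 rest on very few UMIs. Of 437 values of the 26 list medians, 279 stayed within a counting interval set from the list's summed UMIs. A further 156 moved out of it, 20 of them under TMM scaling and 20 after thinning. The other 2 turned from past 1.5-fold to the other sign. Counting turns of any size, 34 values had the other sign, 7 of them in capillary-like clusters only and 7 with Epcam UMIs allowed. Of the lists concerned, MHC class II had a median past 1.5-fold, and turned with Epcam UMIs allowed (-0.946) and with the mean CPM per barcode (-0.0569); the other medians that turned were at most 0.262 in size. The cause was not tested. Counts of higher and lower genes were 327 and 568 with 5 CPM added, 170 and 334 at 100 UMIs or more, where fewer genes were measured, and 1412 and 2355 at 1 UMI or more. In capillary-like clusters only, where fewer UMIs leave fewer genes measured, 476 were higher and 625 lower.

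With Epcam UMIs allowed, members made up 3.08% and 3.22% (KO and WT). Gpm6a was at 2.31 and 1.27 CPM without the lymphatic-like and high endothelial venule-like clusters. At resolution 0.5 capillary-like shares were 15.7% and 15.4%, high endothelial venule-like 6.64% and 5.41%, and tip-like 0% and 0%. At resolution 2 arterial-like shares were 2.45% and 4.63%, and high endothelial venule-like shares stayed at 3.15% and 0.386%. With barcodes named singly, the WT lymphatic-like share was 6.56%; KO and WT shares were 42.0% and 27.4% capillary-like, 12.6% and 17.8% arterial-like, 15.7% and 22.8% venous-like, 7.34% and 5.02% high endothelial venule-like, and 15.0% and 20.5% tip-like. Cycling shares without thinning were 3.50% and 5.79%. No paired analysis was possible because each genotype had 1 library, and for the same reason no replicate could be left out. The runs with Epcam allowed, without lymphatic-like and high endothelial venule-like clusters, in capillary-like clusters only, without thinning, and without each gene's highest barcode were added after seeing the data. Genes under 100 UMIs and clusters of under 20 barcodes limit what these libraries can show.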

Other observations

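Lymphatic markers were counted over all members. Over all measured genes 5.56% were higher and 10.1% lower. Of 13 measured, 8 were at least 1.5-fold higher in KO and 0 lower (median log2 0.72), beside 13 KO and 5 WT lymphatic-like barcodes. Lyve1 stood at 83.8 against 26.8 CPM, Pdpn, a mucin-type glycoprotein of lymphatic endothelium, at 31.1 against 16.9 CPM, and the guidance protein gene Reln at 18.3 against 10.7 CPM. Prox1 stood at log2 0.30 and the lymphatic VEGF receptor Flt4 at log2 -0.38. Of the 10 measured markers of high endothelial venules 7 were higher and 1 (Madcam1) lower, with Apoe at 1369 against 683 CPM and Ubd at 288 against 25 UMIs.

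Genes of skeletal muscle were found in WT members. Acta1, the skeletal muscle actin, had 5 UMIs in KO and 258 in WT, the muscle creatine kinase gene Ckm 2 and 107, and the myosin light chain gene Mylpf 21 and 222. In all other barcodes Acta1 stood at 16.0 CPM in KO and 290.2 CPM in WT. The MHC class II median of log2 0.64 over 5 measured genes rested on few UMIs, with 86 against 20 for Cd74 and 41 against 14 for H2-Ab1. Of the myeloid markers, 2 of 8 reached 20 UMIs over both libraries, Cd74 being higher and Cd68 at log2 -0.48. The platelet marker Itga2b had 32 against 16 UMIs and Pf4 20 against 6. The part of other cells' RNA in these values was not tested.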
